A study of Capra hircus with 9 samples.

Results

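The miR-99/100 family comprises small regulatory RNAs cut from 3 hairpin precursors, chi-mir-99a, chi-mir-99b and chi-mir-100. Its members were taken by name, as every row of the deposited count table that starts with chi-miR-99a, chi-miR-99b or chi-miR-100-, and the rule gave 6 of the 1359 listed miRNAs, the 5p and the 3p arm of each hairpin. The counts came from small RNA sequencing of mammary gland tissue of healthy Laoshan dairy goats in parity 3 with a mean age of 4 years. Goats were sampled in late lactation at 240 days postpartum (LL), in the dry period at 300 days postpartum (DP) or in late gestation at 140 days after mating (LG). Each stage had 3 goats with 1 library per goat, and tissue was collected after slaughter from the same side of the udder. The labels name no treatment, and the 9 goats are different animals. The tissue was not sorted, so that fewer cells of a type and less RNA per cell cannot be told apart in any value below.

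A miRNA is loaded into an Argonaute protein and pairs with messenger RNAs mainly through its seed, a short stretch near its 5′ end. In this family the 5p arm is the usual guide, and the 5p arms of the 3 hairpins carry the same seed, while the 3p arm is usually degraded as the passenger. The family is known for repressing the growth regulators MTOR and IGF1R and for slowing cell proliferation, and in mammals its genes lie beside let-7 and miR-125 genes with which they can share a primary transcript. The mature miR-99a-5p and miR-100-5p are nearly identical, and the setting for mismatches in the counting is not given in the sources used here, so that the split of reads between these 2 is uncertain. No target level was measured here.

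In the goat annotation (ARS1.2), MIR99A spans 19043079 to 19043159 of chromosome 1, with 644 bases between it and MIRLET7C and 51216 bases between it and MIR125B. All 3 genes sit inside LOC102176916, a gene for a long non-coding RNA. MIR100 spans 49522199 to 49522281 of chromosome 15 inside LOC108637679, another long non-coding RNA gene. MIR99B spans 58704941 to 58705010 of chromosome 18 in no other gene, with 85 bases between it and MIRLET7E. Thus 3 separate loci give the 3 hairpins, and the annotation places a let-7 gene next to MIR99A and MIR99B.

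Total counts per library ranged from 13672653 to 34378995, and 3 counts, the limit for a miRNA counted 0 times, equalled 0.0873 to 0.219 CPM (counts scaled to a common library total). These limits and the intervals below cover counting error only. Levels are given as CPM scaled with the TMM method of edgeR, as mean ± SD of 3 goats. A miRNA entered edgeR's quasi-likelihood test when 3 libraries or more held at least 0.5 CPM of it, which 696 did. The DE-miRNAs are those that changed by more than 1 on the log2 scale, up or down, with a Benjamini-Hochberg adjusted p below 0.05. A single miRNA, chi-miR-148a-3p, took 53.6% ± 5.51 of the counts in LL, 42.5% ± 2.74 in LG and 9.61% ± 1.07 in DP (SD, n = 3 each), which sets the share left for all others.

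The 5p arm of miR-99a was the most abundant member in each library. Its level was 27684, 34646 and 48662 CPM in the LL libraries, 104851, 185359 and 92098 CPM in the DP libraries, and 36192, 34794 and 39242 CPM in the LG libraries. Each DP library lay above all LL and LG libraries, while LL and LG overlapped. It took 12.2%, 17.2% and 9.42% of all counts in DP against 2.06% to 3.66% in LL and 4.14% to 5.04% in LG. By count it ranked first in DP replicates 1 and 2 and 3rd in DP replicate 3, against ranks 4 to 7 in LL and rank 4 in each LG library.

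chi-miR-100-5p, which shares the seed of miR-99a-5p, was the second member by level. It measured 2023, 2397 and 3267 CPM in LL, 5976, 11660 and 13281 CPM in DP, and 2520, 2763 and 2970 CPM in LG. Again every DP library lay above all others, but here DP replicate 1 was the lowest of the stage and DP replicate 3 the highest. In rank it stood between 15 and 22 in DP, 29 and 35 in LL, and 27 and 36 in LG.

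chi-miR-99b-5p, from the chromosome 18 locus, was the lowest of the 5p arms. Its level was 376, 574 and 601 CPM in LL, 603, 1687 and 1847 CPM in DP, and 497, 480 and 495 CPM in LG. DP replicate 1 exceeded LL replicate 3 by a small margin only, whereas the other DP libraries stood clear of all LL and LG libraries.

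The 3p arms were low by comparison. chi-miR-99b-3p measured 14.9, 17.5 and 20.3 CPM in LL, 34.9, 37.1 and 67.8 CPM in DP, and 18.6, 18.8 and 19.4 CPM in LG, with all DP libraries above the rest. chi-miR-99a-3p measured 22.2, 27.3 and 32.8 CPM in LL, 58.9, 23.9 and 33.6 CPM in DP, and 25.4, 21.6 and 24.5 CPM in LG, and its DP libraries overlapped both other stages. It was highest in DP replicate 1 and lowest of the stage in DP replicate 2, the library in which its 5p arm was highest. chi-miR-100-3p had 1, 3 and 11 counts in LL, 25, 17 and 28 counts in DP, and 11, 7 and 8 counts in LG, and reached 0.5 CPM by library size only in the 3 DP libraries.

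**Figure D1:**
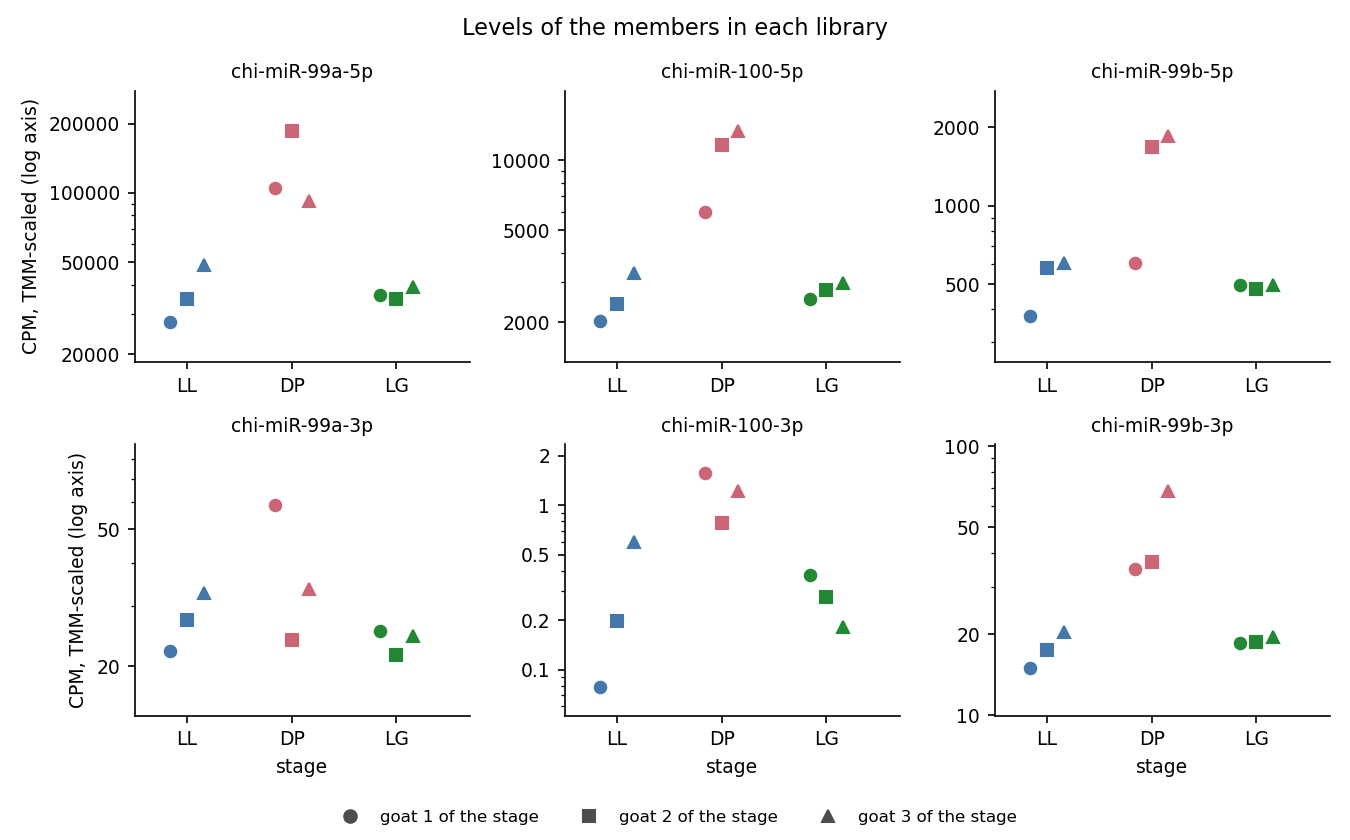
TMM-scaled CPM (y axis, log scale, own range in each panel) of the 6 members in each library, by stage (x axis), with 1 point per goat and a marker shape per replicate number, which does not link goats across stages. The 3 DP points lie above all LL and LG points in each panel except that of chi-miR-99a-3p, where the stages overlap.

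For lactation cessation, DP was compared with LL. The 5p arms of all 3 hairpins were higher in DP, with log2 fold changes of 1.78 (SE 0.30, adjusted p = 0.00185) for chi-miR-99a-5p, 2.01 (SE 0.31, adjusted p = 0.00105) for chi-miR-100-5p and 1.41 (SE 0.37, adjusted p = 0.0161) for chi-miR-99b-5p. These correspond to 3.44, 4.02 and 2.67 times the LL mean. Of the 3p arms, chi-miR-99b-3p rose by 1.41 on the log2 scale (SE 0.31, adjusted p = 0.00763). The value for chi-miR-99a-3p was 0.50 (SE 0.34, adjusted p = 0.301), which did not pass. The 5 members that reached the minimum in all 9 libraries thus gave 4 DE-miRNAs, all higher in DP, where 15.1% of all tested miRNAs were DE-miRNAs higher in DP. The libraries did not overlap for the same 4, against 21.0% of all tested miRNAs not overlapping with DP higher. The median log2 fold change of the 5 members, chi-miR-99a-3p included, was 1.41, against 0.12 for all 696 miRNAs.

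chi-miR-100-3p was fitted at 1.93 on the log2 scale (SE 0.62, adjusted p = 0.0387). It entered the test only through its DP libraries and had 1 and 3 counts in LL replicates 1 and 2, so that the fitted value depends on the prior count and its call adds no support. With it, the count was 5 of 6 and the median 1.60.

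DP was also compared with LG, the stage that follows it before the next lactation, using the same 3 DP libraries. On the log2 scale DP was higher by 1.79 (SE 0.30, adjusted p = 0.00130) for chi-miR-99a-5p, 1.91 (SE 0.31, adjusted p = 0.00101) for chi-miR-100-5p, 1.49 (SE 0.37, adjusted p = 0.0109) for chi-miR-99b-5p and 1.30 (SE 0.31, adjusted p = 0.00864) for chi-miR-99b-3p. chi-miR-99a-3p gave 0.70 (SE 0.34, adjusted p = 0.141). Thus 4 of the 5 members that reached the minimum in every library were higher in DP than in LG, beside 21.6% of all tested miRNAs. Their libraries did not overlap, as those of 27.7% of all tested miRNAs with DP higher. The median of the 5 members, chi-miR-99a-3p included, was 1.49, against 0.18 for all tested miRNAs. chi-miR-100-3p was fitted at 2.09 (SE 0.59, adjusted p = 0.0175), with the same limit as above. In both comparisons at once, 9.63% of all tested miRNAs were DE-miRNAs higher in DP.

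LL and LG were compared as the stages before and after the dry period. No member was a DE-miRNA by edgeR, with adjusted p between 0.759 and 0.985, and the libraries of the 2 stages overlapped for all 6 members, where those of 48.4% of all tested miRNAs did not. The log2 fold changes ranged from −0.10 for chi-miR-99b-3p and chi-miR-100-5p to 0.20 for chi-miR-99a-3p. At an unadjusted p under 0.05 and by DESeq2 and limma-voom the count was 0 as well. Of all tested miRNAs, 12.8% were DE-miRNAs here. The sign of these small differences moved with the scaling. chi-miR-99a-5p was at 0.01 with TMM, which here measured each library against DP replicate 3. It was at −0.24 to −0.08 with TMM measured against any of the other 8 libraries, and at −0.58 with library size only.

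**Figure D2:**
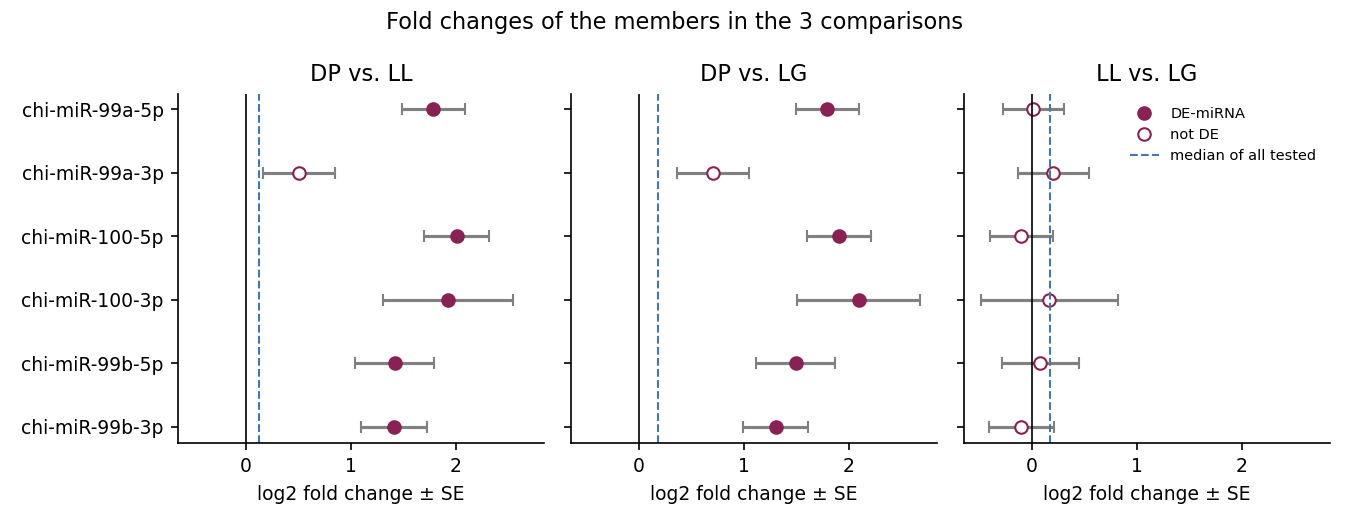
log2 fold change ± SE (x axis) of each member (y axis) for the 3 comparisons, with filled points for DE-miRNAs and a dashed line at the median of all tested miRNAs. Members lie at 1.30 to 2.09 in both comparisons of DP, except chi-miR-99a-3p at 0.50 and 0.70, and near 0 for LL vs. LG.

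TMM measures each library against a reference library, which edgeR picked as DP replicate 3. With any of the other 8 libraries as the reference, an alternative chosen after the data were seen, the log2 fold change of chi-miR-99a-5p was 1.64 to 1.83 for DP vs. LL and 1.44 to 1.64 for DP vs. LG. For chi-miR-100-5p it was 1.87 to 2.10 and 1.56 to 1.81, and both miRNAs were DE-miRNAs under each reference. With DP replicate 1 as the reference, 4 members instead of 5 were called in each comparison, as chi-miR-100-3p missed the limit against LL (adjusted p = 0.0521 by edgeR) and chi-miR-99b-3p fell to 0.96 against LG. The median of all tested miRNAs moved with the reference, from 0.18 to between −0.17 and 0.03 for DP vs. LG. Both also remained DE-miRNAs without any 1 of the 9 libraries.

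The calls of miR-99b did not hold in every fit with 1 library left out. Each such fit also took another TMM reference than DP replicate 3, so that a lost call cannot be laid to the missing library alone. For DP vs. LL, chi-miR-99b-5p missed the limit without LL replicate 1 (1.37, adjusted p = 0.0773), LL replicate 2 (1.55, adjusted p = 0.0575), DP replicate 2 (1.40, adjusted p = 0.0513) or DP replicate 3 (1.15, adjusted p = 0.0535). For DP vs. LG it missed the limit without DP replicate 2, DP replicate 3 or any LG library, at log2 fold changes of 1.03 to 1.42 and adjusted p of 0.0636 to 0.0758 by edgeR. chi-miR-99b-3p was no longer a DE-miRNA without DP replicate 3, at 0.99 against LL and 0.70 against LG, nor against LG without any LG library (1.19 without LG replicate 3, adjusted p 0.0640 to 0.0730). chi-miR-100-3p lost its call without LL replicate 1 or 2 against LL and without LG replicate 2 or 3 against LG, and was not tested without a DP library.

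The family as a whole took 2.24%, 3.47% and 3.96% of all counts in the LL libraries, 13.0%, 18.5% and 11.0% in the DP libraries, and 4.50%, 4.53% and 5.49% in the LG libraries. The 95% binomial intervals (Wilson) were within 0.00702 to 0.0178 percentage points of these shares, far under the spread between goats. The stages differed by an exact permutation test over the 280 assignments of stages to libraries (p = 0.00357, the smallest it can give), and DP lay 10.1 percentage points above the mean of LL and LG. Pairs of stages were compared by a two-sided exact permutation test, which with 3 against 3 libraries cannot go below 0.1, and each pair was at p = 0.1. When chi-miR-148a-3p was taken out of the denominator, the shares were 6.89% ± 1.46 in LL, 15.7% ± 4.27 in DP and 8.40% ± 0.583 in LG (SD, n = 3 each), and the stages still differed (exact permutation test, p = 0.0107). DP then lay 8.01 percentage points above the others.

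**Figure D3:**
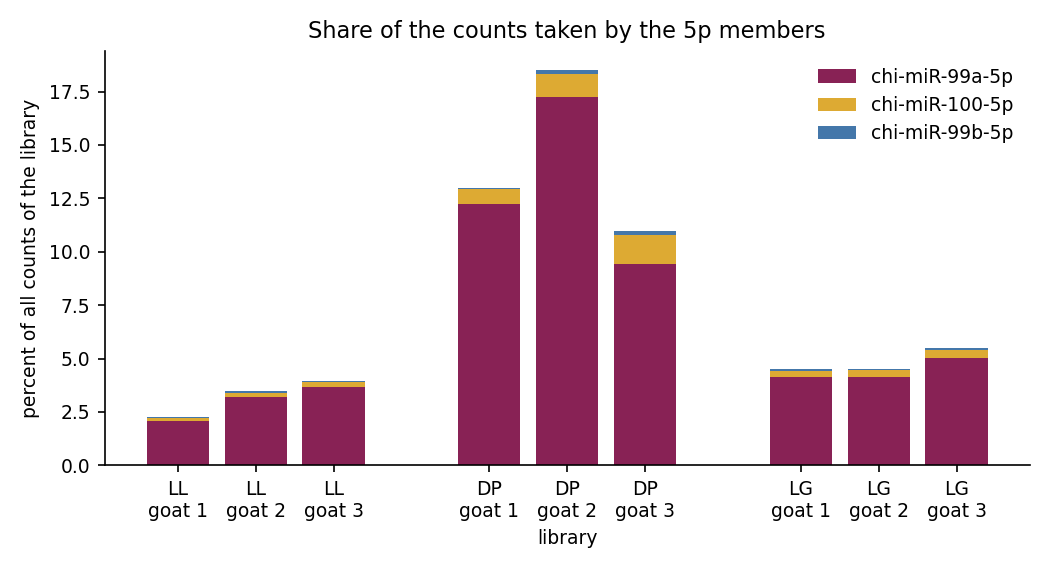
Percent of all counts of a library (y axis) taken by the 5p arms of miR-99a, miR-100 and miR-99b, stacked, in each of the 9 libraries (x axis). The DP bars reach 11.0% to 18.5% and those of LL and LG from 2.24% to just under 5.49%, with most of each bar from chi-miR-99a-5p.

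Within the family, chi-miR-99a-5p held 92.1% ± 0.344 of the reads in LL, 91.0% ± 4.53 in DP and 91.8% ± 0.412 in LG (SD, n = 3 each). chi-miR-100-5p held 6.43% ± 0.259, 7.87% ± 3.91 and 6.87% ± 0.423 in the same order. The goats of LL and of LG lay close together in this mix and those of DP did not, as the part of chi-miR-99a-5p went from 85.8% to 94.0%.

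Ratios of counts within a library do not depend on the scaling between libraries, and they were used to ask whether members moved alike. Each was tested over the 280 assignments with the exact permutation test for any difference between the 3 stages, and p-values were adjusted over the 3 pairs of 5p members. There were 12.6 to 14.9 reads of chi-miR-99a-5p per read of chi-miR-100-5p in the LL and LG libraries, and 17.5, 15.9 and 6.93 in the DP libraries. DP replicate 3 was the lowest of all, and DP replicates 1 and 2 were the highest. No difference between stages was detectable by the test (adjusted p = 0.971), at a mean difference of DP from the others of −0.15 on the log2 scale. Without DP replicate 3 this difference was 0.27 and passed the test (adjusted p = 0.0214).

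The ratio of chi-miR-99a-5p to chi-miR-99b-5p was 174, 110 and 49.9 in DP, so that the DP libraries spread around the others. Its log2 means were 6.15 ± 0.22 in LL, 6.62 ± 0.91 in DP and 6.23 ± 0.07 in LG (SD, n = 3 each, adjusted p = 0.943 by the exact permutation test). Without DP replicate 3, DP lay 0.92 above the others and passed (adjusted p = 0.0321 by the same test). Without DP replicate 1 the difference was 0.02. chi-miR-100-5p stood to chi-miR-99b-5p at 5.38, 4.17 and 5.43 in LL, 9.92, 6.91 and 7.19 in DP, and at 5.07 and 5.76 in LG replicates 1 and 2, with LG replicate 3 the highest of its stage. All DP libraries were above the others here, and this ratio was higher in DP by 0.58 on the log2 scale (exact permutation test, adjusted p = 0.0321). Without DP replicate 1 the difference was 0.42 and did not pass (adjusted p = 0.0857), nor did it at 0.52 without LL replicate 2 (adjusted p = 0.0964), 0.59 without LG replicate 2 or 0.61 without LG replicate 3 (adjusted p = 0.0857 each).

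The same test was applied to the ratio of the 5p to the 3p arm of a hairpin, adjusted over the 3 hairpins. For miR-99a there were 1244, 1268 and 1484 reads of the 5p arm per read of the 3p arm in LL, 1778, 7764 and 2738 in DP, and 1423, 1613 and 1600 in LG. Every DP library was above the others, but DP replicate 2 stood far from the other DP libraries. On the log2 scale DP lay 1.23 above the mean of LL and LG (exact permutation test, adjusted p = 0.0214). Without any 1 of the LL or LG libraries the difference stayed as large, at 1.2 to 1.27, but the adjusted p was 0.118 to 0.139, and without DP replicate 2 the difference was 0.62 (adjusted p = 0.0214). Adjusted instead over the 129 hairpins with both arms tested, chosen after the data were seen, the value was 0.0658, at which 7.75% of the hairpins were below 0.05. The median hairpin lay 0.21 higher in DP, with a range of −2.20 to 2.77, and miR-99a ranked 15 of 129 for a shift toward the 5p arm in DP.

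For miR-99b, the log2 arm ratio was 4.86 ± 0.19 in LL, 4.79 ± 0.70 in DP and 4.70 ± 0.04 in LG (SD, n = 3 each; exact permutation test, adjusted p = 0.904). Its 3p arm was thus far nearer in level to the 5p arm than that of miR-99a. For miR-100, it was 13.26 ± 0.86, 13.02 ± 1.03 and 13.25 ± 0.64 (SD, n = 3 each; adjusted p = 0.904 by the exact permutation test), a value that rests on at most 28 reads of the 3p arm in a library. The difference of DP from the others was 0.02 for miR-99b, and −0.34 to 0.36 with 1 library left out. For miR-100 it was −0.23, from −0.63 to 0.35 with 1 library left out and 0.42 with a pseudocount of 5, so that neither sign was stable.

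**Figure D4:**
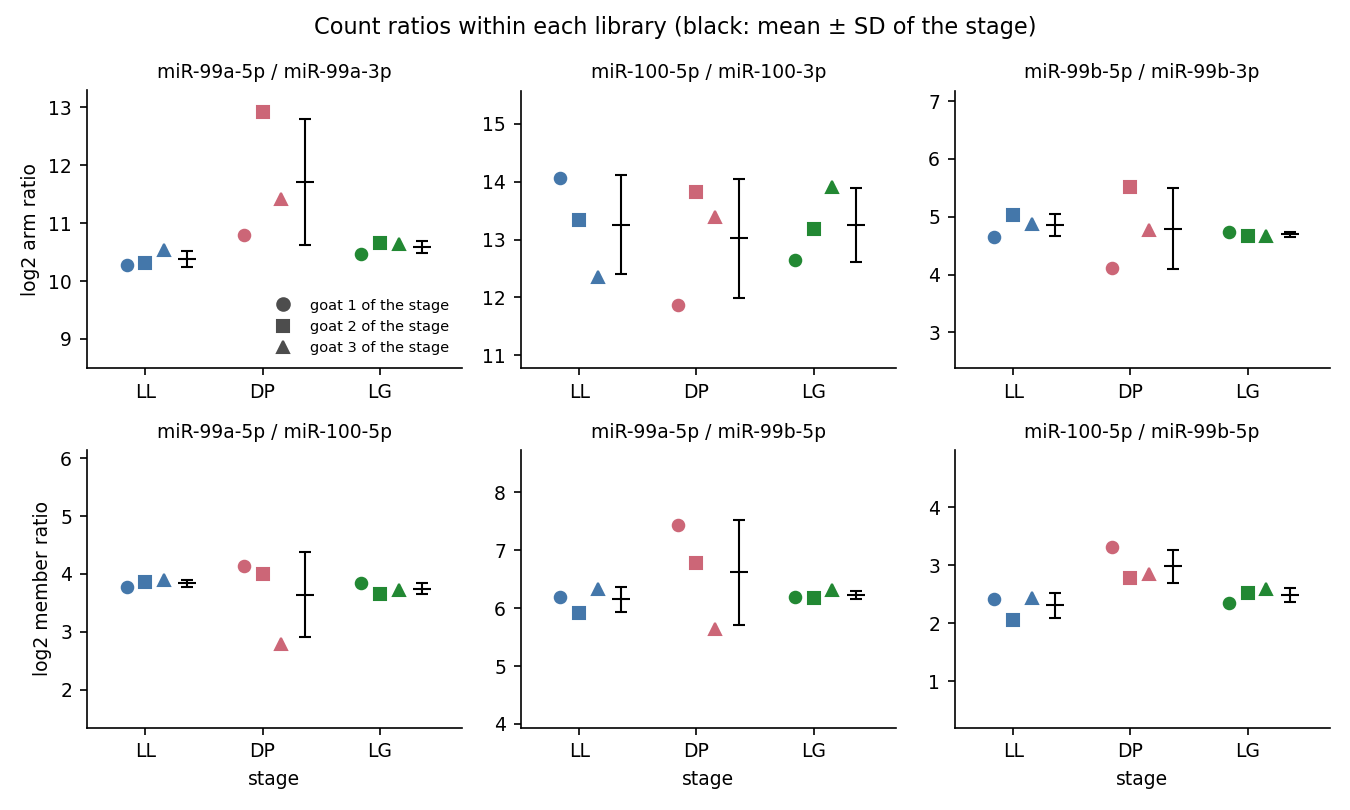
log2 ratio of counts within a library (y axis) by stage (x axis), with arm ratios in the upper row and ratios between 5p arms in the lower row, 1 point per goat and the mean ± SD of 3 goats in black. The DP points of miR-99a-5p to miR-99a-3p and of miR-100-5p to miR-99b-5p lie above all others, and DP points scatter more widely in the other panels.

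The let-7 and miR-125 hairpins that neighbour this family in mammals were taken as the closest comparison. The goat annotation places, of these, MIRLET7C and MIR125B in the same non-coding RNA gene as MIR99A and MIRLET7E beside MIR99B, but none near MIR100, and MIRLET7A on chromosome 5, and the locus of miR-125a was not used here. All 5 of their 5p arms, the guide strands of chi-let-7a, chi-let-7c, chi-let-7e, chi-miR-125a and chi-miR-125b, were DE-miRNAs higher in DP in both comparisons, as were 9.63% of all tested miRNAs. Next to MIR99A, chi-let-7c-5p, which belongs to a family known for restraining growth, had log2 fold changes of 2.01 (SE 0.31) against LL and 1.60 (SE 0.30) against LG. chi-miR-125b-5p, named for MIR125B in the same non-coding RNA gene, had 1.99 (SE 0.23) and 2.29 (SE 0.24). Whether its reads came from that gene alone was not tested. Next to MIR99B, chi-let-7e-5p had 1.32 (SE 0.20) and 1.40 (SE 0.20). chi-let-7a-5p had the smallest values, 1.23 (SE 0.21) and 1.15 (SE 0.21), and against LG it fell under the fold limit, at 0.80 to 0.99, with each of the other 8 reference libraries. Against LG it also fell under that limit in 8 of 10 other alternatives, down to 0.77, and in 6 of the 9 fits with 1 library left out, down to 0.85 without DP replicate 1. These 6 left out any 1 of the LL libraries, DP replicate 1, DP replicate 2 or LG replicate 3. Each of them also took another reference library, a change that alone brought chi-let-7a-5p under the limit, as given above. Against LL, chi-let-7a-5p also fell under the fold limit without DP replicate 1 (0.997).

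Of the 5 neighbouring 3p arms, only chi-let-7e-3p was a DE-miRNA. Of all tested miRNAs, 15.1% were DE-miRNAs higher in DP than in LL and 21.6% higher than in LG. chi-let-7e-3p had 1.76 (SE 0.40) against LL and 1.67 (SE 0.39) against LG, or 0.91 against LG without DP replicate 1. chi-let-7c-3p had 0.44 and 0.31, and chi-miR-125b-3p had 0.38 and −0.01. chi-let-7a-3p had −0.50 and 0.05. chi-miR-125a-3p had 0.85 (SE 0.32, adjusted p = 0.0690) against LL and 0.93 (SE 0.32, adjusted p = 0.0414) against LG, under the fold limit, though its DP libraries overlapped neither stage, and with library size only it was a DE-miRNA against LL. The 3 hairpins annotated at the locus of MIR99A therefore each had a DE-miRNA as the 5p arm and none as the 3p arm. At that of MIR99B, both arms of miR-99b and let-7e were DE-miRNAs. In the arm ratios over all 129 hairpins, adjusted in the same way, miR-125b ranked 3 (DP higher by 1.95, adjusted p = 0.0461 by the exact permutation test) and let-7a ranked 9 (1.42, adjusted p = 0.0461 by the same test). The others did not pass the limit by that exact permutation test: let-7c ranked 13 (1.33, adjusted p = 0.102), miR-125a ranked 32 (0.86, adjusted p = 0.0658) and let-7e ranked 88, with DP lower (−0.21, adjusted p = 0.903).

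The ratio of each 5p member to its neighbours within a library was tested for 6 pairs. No difference between stages passed the test (exact permutation test, adjusted p from 0.348 to 0.993 over the 6 pairs). Without DP replicate 1, however, the ratios of chi-miR-99a-5p to chi-let-7c-5p (DP higher by 0.41 on the log2 scale), chi-miR-100-5p to chi-miR-125b-5p (−0.0083) and chi-miR-99b-5p to chi-miR-125a-5p (0.0090, against −0.44 with all libraries) differed between stages, and without DP replicate 2 that of chi-miR-99a-5p to chi-miR-125b-5p did (−0.69). The test asks for any difference between the 3 stages, and the ratios to miR-125b of miR-100-5p and to miR-125a of miR-99b-5p lay 0.41 and 0.69 lower in LL than in LG, with no overlap between these 2 stages (exact permutation test, p = 0.1 each, the smallest it can give), while DP lay near the mean of both once DP replicate 1 was left out. DP goats spread more widely than those of LL and LG, with an SD of 1.00 on the log2 scale for chi-miR-99b-5p to chi-let-7e-5p in DP, against 0.30 in LL and 0.03 in LG.

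**Figure D5:**
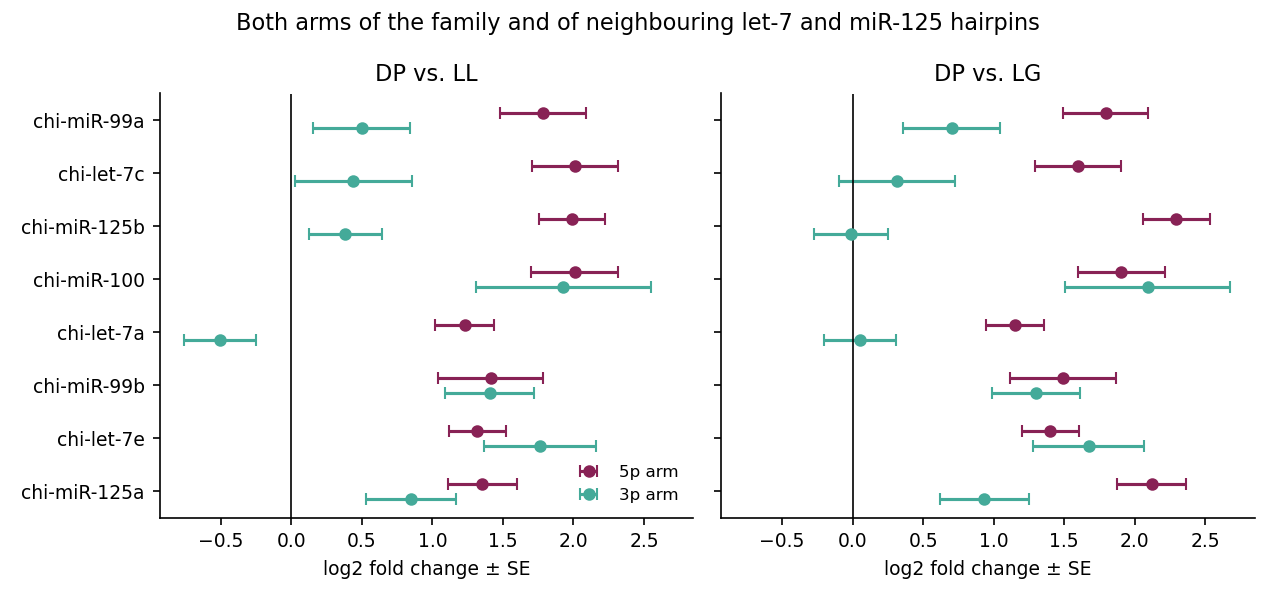
log2 fold change ± SE (x axis) of the 5p and 3p arms of the 3 family hairpins and 5 neighbouring hairpins (y axis) for DP vs. LL and DP vs. LG. The 5p arms lie at 1.15 to 2.29, and the 3p arms of let-7a, let-7c, miR-99a and miR-125b lie at −0.50 to 0.70, with that of miR-125a at 0.85 and 0.93 and those of let-7e, miR-99b and miR-100 at 1.30 to 2.09.

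Likeness of pattern was measured as Pearson's r of log2 CPM over the 9 libraries, as a description with no test, since the libraries of a stage share its level. The 3 miRNAs outside the family most like chi-miR-99a-5p were chi-miR-214-3p (r = 0.965), the predicted NC_030826.1_25216 (r = 0.958) and chi-miR-505-3p (r = 0.958). Those most like chi-miR-100-5p were chi-miR-214-3p (r = 0.975), chi-miR-125a-3p (r = 0.969) and chi-miR-214-5p (r = 0.967). chi-miR-99b-5p was closest to chi-miR-24-5p (r = 0.977), chi-miR-24-3p (r = 0.965) and chi-miR-23b-3p (r = 0.959). With the mean of each stage taken off, r was 0.700, 0.848 and 0.633 for the 3 named with chi-miR-99a-5p, 0.791, 0.860 and 0.949 for those with chi-miR-100-5p, and 0.936, 0.946 and 0.928 for those with chi-miR-99b-5p. chi-miR-214-3p, a miRNA known from fibroblasts and other stromal cells, rose from 66.8 ± 27.8 CPM in LL and 67.0 ± 11.2 in LG to 451 ± 90.0 in DP (SD, n = 3 each).

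Among the members, chi-miR-100-5p and chi-miR-99b-5p were the closest pair of 5p arms (r = 0.947 over 9 libraries), and r remained 0.943 after the mean of each stage was taken off. For chi-miR-99a-5p and chi-miR-100-5p, r went from 0.926 to 0.437 when the stage means were taken off. chi-miR-99a-5p and its own 3p arm had r = 0.455, and −0.24 without the stage means. DP replicate 1 was the library farthest from its stage mean in log2 CPM for chi-miR-100-5p (−0.71) and chi-miR-99b-5p (−1.03). The difference between these correlations was not tested.

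Markers of epithelium and fibroblasts moved with the stages. The summed level of the 6 epithelial miRNAs in the table (the miR-200 group and miR-184; chi-miR-205 was not used here) was 34894 to 42113 CPM in LL, 13109 to 20812 in DP and 34219 to 37559 in LG. Of these, 5 were lower in DP than in LL, as were 11.6% of all tested miRNAs, and 3 were lower and 1 was higher in DP than in LG, where 9.91% of all tested miRNAs were lower. The 4 fibroblast miRNAs were both arms of miR-199a and of miR-214. All 4 were DE-miRNAs higher in DP in both comparisons, as were 9.63% of all tested miRNAs. Their summed level was 4847 to 10480 CPM in LL, 17281 to 29959 in DP and 4401 to 4983 in LG. In DP replicates 1, 2 and 3 this sum was 17281, 26890 and 29959 CPM, the order of chi-miR-100-5p and chi-miR-99b-5p and not of chi-miR-99a-5p. In LL all 3 of these miRNAs had the order of the sum, and in LG only chi-miR-100-5p had it.

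For smooth muscle, endothelium and red blood cells, at most 1 miRNA of each list was a DE-miRNA in either comparison of DP. Of the 3 immune miRNAs 1 was higher in DP than in LL and 3 than in LG, and of the 4 skeletal muscle miRNAs 1 and 2 were, beside 15.1% and 21.6% of all tested miRNAs. Smooth muscle and myoepithelial miRNAs summed to 31261 and 42084 CPM in DP replicates 1 and 2 but 125136 in DP replicate 3, against 53225 to 116455 in the other stages. Skeletal muscle miRNAs summed to 3400 CPM in DP replicate 3, against 383 to 1014 in the 8 other libraries. Endothelial miRNAs ranged from 19028 to 31975 CPM in DP and from 14716 to 22980 in LL and LG, and the 3 immune miRNAs in the table from 767 to 1935 in DP and from 243 to 740 in LL and LG. Red blood cell miRNAs spanned 122 to 1284 CPM in DP, 364 to 551 in LL and 87.1 to 168 in LG. No listed marker in the table was at 0, and the part of any of these cell types in the levels of the family was not tested.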

How the data were processed

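Per the labels and the study's methods, reads were trimmed, mapped to the goat genome (ARS1.2), joined to the miRNAs of miRBase and those miRDeep2 predicted, and counted per mature miRNA; the submitters' processing notes name cutadapt 4.2, Bowtie 1.1.1 and FastQC 0.11.9. The deposited values are raw counts, without normalization. The column of LL replicate 3 was treated as deposited expected counts, as 2 of its values were not whole, and these were rounded. The authors' FPKM filter and RUVSeq step were not applied.

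All 9 libraries were fitted together with edgeR 4.0.16 (R 4.3.3), glmQLFit and glmQLFTest, TMM scaling and stage as the only term, at a minimum of 0.5 CPM in 3 libraries. Standard errors are the log2 fold change over the square root of F. Ratios within a library used a pseudocount of 0.5 on the log2 scale, and log2 CPM for correlations a prior count of 2. Permutation tests enumerated all assignments. The fitting was tested on simulated data.

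As alternatives, the model was changed to limma-voom (limma 3.58.1) or DESeq2 1.42.0, the scaling to library size only or the upper quartile, or set without chi-miR-148a-3p or without the family. The filter was dropped or raised to a minimum of 10 counts per library, the third stage was left out of the fit, a replicate block was added, the pseudocount was 5, or 1 library was left out. With 1 library left out, edgeR picked another TMM reference than DP replicate 3 in each fit. Other TMM references and the adjustment over all hairpins were chosen after the data were seen. The members, neighbour and marker lists were chosen with earlier results of these data known. Named miRNAs are the members, the fixed neighbour list, chi-miR-148a-3p, the marker lists and, per 5p member, the 3 miRNAs of highest correlation. A scan of messenger RNAs for seed sites was not run, and no mature sequences were used here. Replicates are separate goats of a stage.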

Additional observations from a re-analysis of the deposited data

How the results depend on the processing

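chi-miR-99a-5p and chi-miR-100-5p were DE-miRNAs higher in DP under every alternative run, each library left out in turn included, with log2 fold changes of 1.47 to 2.13 and 1.78 to 2.35 for DP vs. LL, and 1.28 to 1.77 and 1.48 to 2.00 for DP vs. LG. The number of members called was 5 in both comparisons, beside 15.1% (LL) and 21.6% (LG) of all tested miRNAs, and 4 of 5 without chi-miR-100-3p, which passed the filter only through DP. For DP vs. LL it was 2 to 5 with 1 library left out (3 without DP replicate 2 or either of LL replicates 1 and 2, and 2 without DP replicate 3). For DP vs. LG it was 3 with no filter, 3 with at least 10 counts in every library, 3 with only the 2 stages in the fit, and 2 to 5 with 1 library left out (3 without DP replicate 2 or LG replicate 1, and 2 without DP replicate 3, LG replicate 2 or LG replicate 3). The calls lost were those of miR-99b and chi-miR-100-3p, which could not be tested without a DP library. For LL vs. LG the number of members called was 0 throughout, while the 89 DE-miRNAs of all tested were 144 with only the 2 stages in the fit and 33 to 125 with 1 library left out (33 and 36 without LL replicates 1 and 2, 54 and 41 without LG replicates 1 and 3). The family's share kept its call throughout (7.95 to 11.7 percentage points with 1 library left out).

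The DP difference of the miR-99a arm ratio, 1.23, lost its call when adjusted over all hairpins and without any LL or LG library (adjusted p up to 0.139 by the exact permutation test), although the difference then stayed at 1.2 to 1.27. It kept its call without a DP library, at 0.62 without DP replicate 2 to 1.69 without DP replicate 1. That of chi-miR-100-5p to chi-miR-99b-5p was 0.42 to 0.68, and lost its call without LL replicate 2, DP replicate 1, LG replicate 2 or LG replicate 3. With 1 library left out, chi-miR-99a-5p to chi-miR-100-5p ranged from −0.40 to 0.27 (reversed and called without DP replicate 3) and chi-miR-99a-5p to chi-miR-99b-5p from 0.021 to 0.92 (called without DP replicate 3). Ratios to neighbours ranged from −0.28 to 0.41 for let-7c, −0.69 to −0.13 for miR-99a-5p to miR-125b-5p, −0.41 to −0.0083 for miR-100-5p to miR-125b-5p and −0.72 to 0.0090 for miR-99b-5p to miR-125a-5p. Each of these 4 was called without 1 DP library (replicate 1, and replicate 2 for the second), the last with its sign reversed at 0.0090. For the last 2, DP then did not stand apart from the mean of LL and LG, and LL and LG did not overlap. The 2 other pairs were not called, at 0.33 to 1.18 for miR-100-5p to let-7a-5p and −0.38 to 0.52 for miR-99b-5p to let-7e-5p. The cause was not tested.

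The replicate numbers do not link goats, which are different animals in each stage. Deviations from the stage means correlated at −0.10 to 0.21 over the 9 pairs with the same number, 3 of them over 0.1. Over the pairs with different numbers they correlated at −0.23 to 0.15. Of the 9 libraries, 6 correlated best with a library of their own number. Whether libraries of the same number shared a step of processing was not tested. With the replicate block, the DE-miRNAs of all tested were 170, 222 and 88 for DP vs. LL, DP vs. LG and LL vs. LG, the members called 4, 5 and 0, the miR-99a arm ratio 1.23 (adjusted p = 0.0833) and the ratio of chi-miR-100-5p to chi-miR-99b-5p 0.58 (adjusted p = 0.167, both exact permutation tests with a smallest p of 0.0278). Depth limits chi-miR-100-3p, with 1 to 28 counts per library.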
